A study of Homo sapiens with 3 samples.

Results

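The genes described here are interferon-stimulated genes and RNA sensors: 51 genes given by name, all of which were found among the 19266 genes of the deposited tables by Entrez gene identifier. They were measured by RNA-seq in KYSE510 cells, a long-established line from a human squamous carcinoma of the esophagus, to screen for genes that respond to the loss of the transcript TCONS_02256997. All groups carried lentivirus, which the cells received for 24 h before 48 h under 4 µM puromycin. The control group carried a scrambled short hairpin RNA, sh1 the first hairpin against the transcript and sh2 the second. Each group is 1 sample of 1 cell line with 3 numbered tables, treated here as 3 libraries. Nothing in the labels says that the tables came from separate cultures. The p-values therefore describe the scatter of the tables alone, possibly a technical one, and no test between samples was possible with 1 per group. Cells without virus and the targeted transcript itself were not analysed here.

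Interferons are secreted when a cell senses foreign nucleic acid. Sensors such as RIG-I and MDA5 bind double-stranded or uncapped RNA in the cytosol and signal through the mitochondrial adaptor MAVS, while TLR3 binds double-stranded RNA in endosomes. Type I and type III interferons then act on their receptors and on a complex that holds STAT2 and IRF9 and binds a DNA element named ISRE before many antiviral genes. Many sensors and factors of the pathway are interferon-stimulated genes themselves, and epithelial tumour lines can express them at a high level without infection.

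The ISRE core (GAAA, any 2 bases, then GAAA again) and the STAT dimer element named GAS (TTC, any 3 bases, then GAA) were searched on both strands of RefSeq promoter windows of build GRCh38.p14, which run from 250 bases before to 50 after each gene's start. A window was held for 42 of the 51 genes, and 24 of these (57.1%) had an ISRE core, against 996 of 27305 windows of all genes (3.65%). A GAS core was present in 12 of the 42 windows (28.6%) and in 2152 of all 27305 (7.88%). The windows below are of the 3 genes with the greatest rise with sh2 and the 2 with the greatest fall, among those with an entry. They are given 5′ to 3′ on the strand of the gene, with the matches in capitals.
RSAD2, chr2:6865635-6865934, plus strand: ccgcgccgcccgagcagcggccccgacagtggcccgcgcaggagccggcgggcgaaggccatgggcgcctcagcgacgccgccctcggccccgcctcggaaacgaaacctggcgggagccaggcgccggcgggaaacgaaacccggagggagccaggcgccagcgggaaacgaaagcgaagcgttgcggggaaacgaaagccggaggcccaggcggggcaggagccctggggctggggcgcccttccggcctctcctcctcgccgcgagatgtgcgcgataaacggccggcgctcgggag
IFIT1, chr10:89392373-89392672, plus strand: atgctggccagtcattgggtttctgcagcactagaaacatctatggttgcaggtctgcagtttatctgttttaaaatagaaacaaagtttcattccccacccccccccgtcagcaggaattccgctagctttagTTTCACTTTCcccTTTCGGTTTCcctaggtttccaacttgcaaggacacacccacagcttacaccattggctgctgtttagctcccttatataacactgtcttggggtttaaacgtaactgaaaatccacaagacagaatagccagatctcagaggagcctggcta
IFI6, chr1:27672143-27672442, minus strand: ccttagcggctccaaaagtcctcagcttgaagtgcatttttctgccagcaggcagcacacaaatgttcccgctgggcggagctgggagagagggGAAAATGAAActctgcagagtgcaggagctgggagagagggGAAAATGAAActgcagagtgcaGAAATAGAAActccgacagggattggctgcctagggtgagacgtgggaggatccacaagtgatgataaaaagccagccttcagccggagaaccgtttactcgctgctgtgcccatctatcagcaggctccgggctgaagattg
IFITM1, chr11:313790-314089, plus strand: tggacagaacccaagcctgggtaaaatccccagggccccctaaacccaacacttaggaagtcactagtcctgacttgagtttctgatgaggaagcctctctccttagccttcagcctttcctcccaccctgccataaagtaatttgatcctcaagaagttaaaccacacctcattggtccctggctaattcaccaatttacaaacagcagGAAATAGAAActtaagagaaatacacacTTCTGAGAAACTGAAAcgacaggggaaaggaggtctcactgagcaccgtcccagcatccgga
DDX60, chr4:168318703-168319002, minus strand: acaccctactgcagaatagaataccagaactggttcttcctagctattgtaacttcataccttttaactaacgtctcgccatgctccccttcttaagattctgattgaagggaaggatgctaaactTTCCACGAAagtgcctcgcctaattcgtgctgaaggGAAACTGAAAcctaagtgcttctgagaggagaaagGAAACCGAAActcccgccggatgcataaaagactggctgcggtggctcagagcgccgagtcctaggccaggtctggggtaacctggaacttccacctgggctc
IFIT1 has 2 ISRE cores, IFI6 has 3, and RSAD2 has 0 in this window. A single window per gene was searched, so a core near any other start of a gene would be missed, for RSAD2 too. IFITM1 and DDX60, the genes that fell, have 2 ISRE cores and 1 GAS core each, and in IFITM1 the GAS core overlaps one of the ISRE cores. A match is a description of the letters and not a measured binding site. The 24 genes with an ISRE core in the window had a median log2 change with sh2 of 0.27 (18 called higher, 3 lower). The 18 without one in the window, RSAD2 among them, had 0.36 (13 higher, 5 lower). Of all tested genes, 34.2% were called higher and 34.3% lower with sh2, and their median was 0.00. With sh1 the medians were 0.00 with a core (10 higher, 9 lower) and 0.02 without (7 higher, 8 lower). All tested genes had 0.01 with sh1 (34.7% higher, 34.6% lower). For sh1 against sh2 the medians were -0.18 with a core and -0.34 without, against 0.00 for all. A difference between genes with and without a core was not tested.

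The libraries held 14660821 to 16092417 expected counts, and 15498 to 15807 genes were above 0. A floor of 3 counts lay between 0.186 and 0.205 CPM, counts scaled to the library's size, and all 51 genes passed the filter on low counts, as did 13580 genes in all. The squamous label was met by the keratin gene KRT5 at 1496 CPM in control and by TP63 at 518. The squamous keratin genes KRT14 and KRT6A were much lower, at 34 and 54.6 CPM. Among 9 genes that mark leukocytes, fibroblasts or endothelium, CD3E and COL1A2 had 0 counts in control, and the pan-leukocyte gene PTPRC had 65 over 3 libraries. LYZ had 258 counts, and the collagen gene COL1A1 had 2260 (49.6 CPM), so that it lay above KRT14. The list of 9 summed to 134 to 143 TPM, the deposited length-corrected level, mostly from CD68. That sum was 198 to 201 TPM with sh1 and 182 to 204 with sh2, and its part in the results below was not tested. The sum of 8 squamous markers was 6804 to 6867 TPM in control, 4309 to 4395 with sh1 and 5599 to 5668 with sh2, and its part was not tested either.

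The genes were already abundant in the control cells. On the TPM scale the 51 genes had a median of 181 in control against 24.4 for all tested genes, every one of the 51 lay above that median, and 39 of them reached 100 TPM (76.5%, against 14.4% of tested genes). The membrane protein gene IFITM3 was the most abundant of them at 3218 TPM, followed by IFI6 at 2669 and IFITM1 at 2212, and then by LGALS3BP at 857 and ISG15 at 833. The sensors for RNA were lower, with RIGI at 189 ± 4.83 TPM and IFIH1 at 162 ± 4.81 (SD, n = 3). Together the 51 genes held 2% ± 0.017 of all TPM in control, 2.2% ± 0.013 with sh1 and 2.29% ± 0.027 with sh2. This share rests on a few abundant genes and is not a rise of each. The sum was 20015 TPM in control, 21953 with sh1 and 22899 with sh2, in which IFI6 alone held 2669, 4831 and 4588. The 3 IFITM genes went the other way, from 5670 in control to 4189 and 4375. The cells were measured in bulk, so that fewer expressing cells and less RNA per cell cannot be told apart.

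The question was how the hairpins moved these genes against control and against each other. With sh2, 36 of the 51 genes rose (70.6%), while 34.2% of all tested genes were called higher, and 11 fell (21.6%, against 34.3%). With sh1 the genes were split, with 19 higher (37.3%, against 34.7% of all genes) and 20 lower (39.2%, against 34.6%). Set against each other, 41 genes were lower with sh1 than with sh2 (80.4%, against 35.6%) and 8 were higher (15.7%, against 34.2%). A call is an adjusted p below 0.05 from the quasi-likelihood test of edgeR, adjusted by the Benjamini-Hochberg method over 13580 genes. In either direction, 39 of the 51 genes were called with sh1 (76.5%, against 69.3% of all genes), 47 with sh2 (92.2%, against 68.5%) and 49 between the hairpins (96.1%, against 69.8%). Libraries did not overlap in 40 genes between sh1 and control (78.4%, against 71.9%): 19 higher (against 36.2%) and 21 lower (against 35.7%). Between sh2 and control they did not overlap in 47 (92.2%, against 70.3%): 36 higher (against 35.3%) and 11 lower (against 35%). Between sh1 and sh2 they did not overlap in 48 (94.1%, against 71.9%): 8 higher with sh1 (against 35.4%) and 40 lower (against 36.6%). The median log2 change was 0.25 with sh2 and 0.01 with sh1, and the median of sh1 against sh2 was -0.19, where all tested genes had 0.00, 0.01 and 0.00. Both hairpins were set against the same control libraries. The 51 genes were also more abundant than most tested genes (median 181 against 24.4 TPM in control). Small changes are called more readily in abundant genes, and their libraries separate more readily. How far this raised the shares above was not tested.

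The changes were moderate in size. At an added threshold of 1.5-fold, 10 genes were called with sh1 (19.6%, against 24.1% of all genes), 11 with sh2 (21.6%, against 22.2%) and 11 between the hairpins (21.6%, against 23.3%). In either direction, then, the shares at 1.5-fold were near or under those of all genes. By direction, 10 of the 51 genes were higher with sh2 (19.6%, against 9.74% of all genes) and 1 was lower (1.96%, against 12.4%). With sh1, 5 were higher (9.8%, against 11.3%) and 5 lower (9.8%, against 12.8%), which is near or under the share of all genes. Between the hairpins, 9 genes were at least 1.5-fold lower with sh1 (17.6%, against 11.3%) and 2 at least 1.5-fold higher (3.92%, against 12%).

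**Figure D1:**
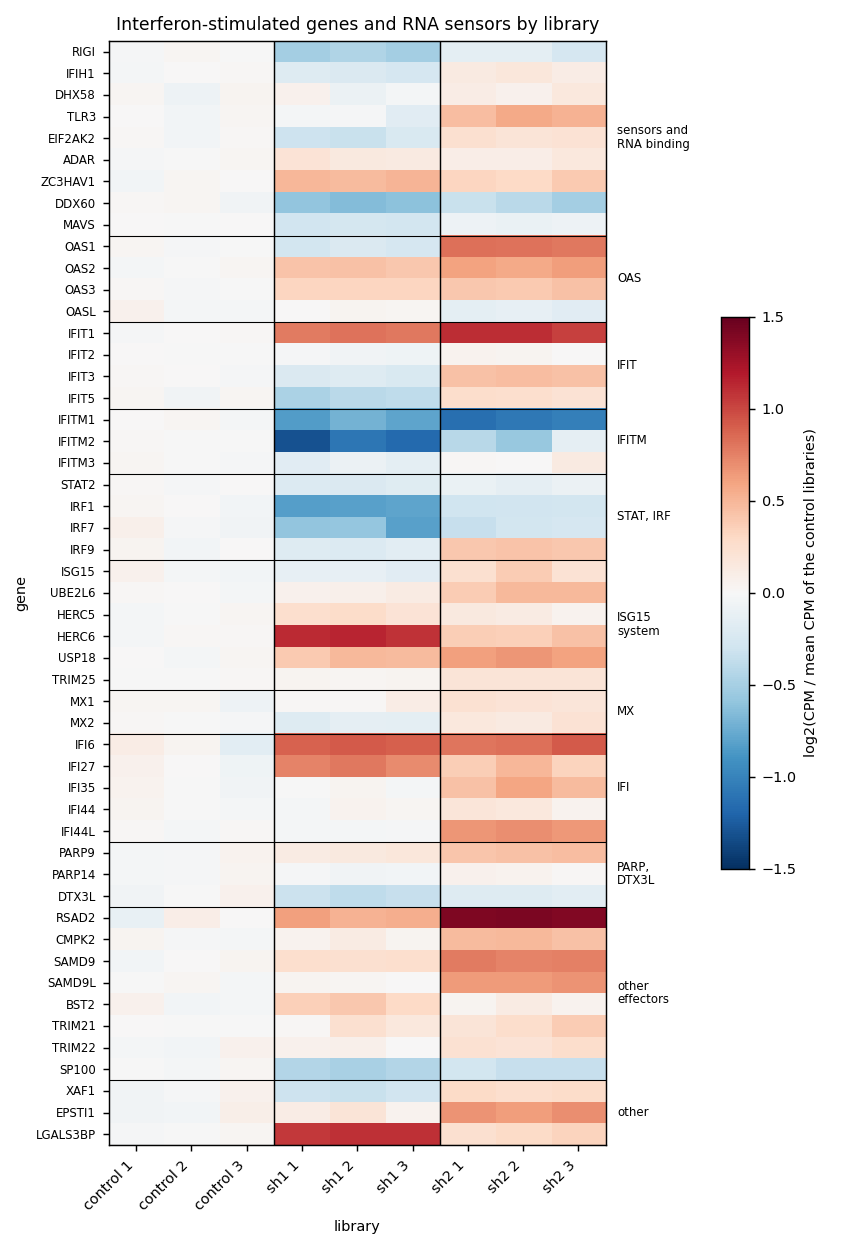
Heat map of the 51 genes (rows, grouped by role) in the 9 libraries (columns). Colour is log2 of the CPM divided by the mean CPM of the control libraries, red for higher and blue for lower. The sh2 columns are mostly red, with IFITM1 and DDX60 among the blue exceptions, and the sh1 columns are mixed.

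The sensors of RNA and their adaptor moved in both directions with each hairpin. Of the 9 genes in this class, 5 fell and 2 rose with sh1 (34.6% and 34.7% of all tested genes), and 6 rose and 3 fell with sh2 (34.2% and 34.3% of all), so that the falls with sh2 were near the share of all genes. RIGI, which encodes the sensor of uncapped RNA ends, read 357, 369 and 361 CPM in control, 255, 264 and 254 with sh1, and 328, 327 and 304 with sh2. It fell with each hairpin, more with sh1, and no library of one group overlapped another. Its log2 change was -0.49 ± 0.031 with sh1 and -0.18 ± 0.031 with sh2 (edgeR adjusted p = 1.18e-14 and 5.58e-06).

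IFIH1, which encodes MDA5, the sensor of long double-stranded RNA, read 231, 236 and 239 CPM in control, 205, 202 and 197 with sh1, and 258, 265 and 255 with sh2. Here sh1 lay below and sh2 above control, with log2 changes of -0.22 ± 0.03 and 0.14 ± 0.029 (edgeR adjusted p = 1.16e-07 and 0.000115). EIF2AK2, which encodes PKR, a kinase that halts translation when it binds double-stranded RNA, followed the same order. It read 296, 283 and 296 CPM in control, 236, 232 and 249 with sh1, and 345, 334 and 338 with sh2. The sh2 libraries were 0.50 ± 0.031 above sh1 on the log2 scale (a value of -0.50 for sh1 against sh2, edgeR adjusted p = 4.7e-15).

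TLR3, the endosomal sensor, read 38.5, 37 and 39.1 CPM in control, 37.4, 37.6 and 33.9 with sh1, and 52.8, 56.5 and 54.8 with sh2. Control and sh1 overlapped, and all sh2 libraries were higher, by 0.52 ± 0.049 on the log2 scale against control (edgeR adjusted p = 1.16e-10). DHX58, which encodes LGP2, a partner of MDA5 without signalling domains, averaged 48.4 ± 2.2 CPM in control, while sh1 gave 47.8 ± 2.58 and sh2 52.3 ± 1.65. Its rise with sh2 (0.11 ± 0.048, edgeR adjusted p = 0.0433) was lost in 10 of 18 alternative analyses, among them those without control library 2, sh1 library 3, sh2 library 1 or sh2 library 3 (adjusted p up to 0.262), so that the 6 rises of the class include 1 that is not stable.

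MAVS, the adaptor that both cytosolic sensors signal through, read 170, 168 and 170 CPM in control, 139, 141 and 140 with sh1, and 160, 158 and 160 with sh2. It fell by 0.27 ± 0.031 with sh1 and by 0.09 ± 0.03 with sh2 on the log2 scale (edgeR adjusted p = 3.43e-09 and 0.0106). DDX60, a helicase linked to RIG-I signalling, had the greatest fall of the class, from 290 ± 9.02 CPM in control to 189 ± 4 (sh1) and 218 ± 13.3 (sh2) (-0.62 ± 0.036 and -0.41 ± 0.035). It was the only sensor past 1.5-fold against control, and only with sh1. That margin was small, and with upper-quartile scaling the change with sh1 was -0.57, under 1.5-fold.

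Among genes of the class that rose with each hairpin, ZC3HAV1, which encodes the CpG-binding antiviral protein ZAP, read 223, 234 and 231 CPM in control. It read 324, 318 and 327 with sh1 and 286, 283 and 301 with sh2, and its changes were 0.49 ± 0.03 and 0.34 ± 0.03 on the log2 scale (edgeR adjusted p = 5.12e-15 and 3.51e-11). The difference between the hairpins (0.16 ± 0.03) was lost on deposited FPKM values, where it was 0.05 or 0.06. FPKM values are corrected for transcript length, CPM are not, and the deposited mean length was 6759 bases with sh1 and 6280 with sh2. How far length accounts for the CPM difference between the hairpins was not tested. ADAR, the enzyme that edits adenosine in double-stranded RNA and keeps it from being sensed, was the most abundant of the class at 427 TPM in control. It rose from 1143 ± 18.6 CPM to 1282 ± 33.1 (sh1) and 1244 ± 28.9 (sh2), and the hairpins overlapped each other.

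The OAS genes encode synthetases that make an oligoadenylate signal when they bind double-stranded RNA. Of the 4, 2 rose and 1 fell with sh1 (34.7% and 34.6% of all tested genes), and 3 rose and 1 fell with sh2 (34.2% and 34.3%). OAS1 read 273, 264 and 267 CPM in control, 222, 231 and 225 with sh1, and 474, 471 and 465 with sh2. The 3 groups stood apart in the order sh1, control, sh2, and the log2 difference of sh1 against sh2 (-1.06 ± 0.028, edgeR adjusted p = 9.57e-24) was the greatest among the 51 genes. OAS2 rose with each hairpin, from 838, 848 and 871 CPM in control to 1150, 1158 and 1127 with sh1 and 1292, 1266 and 1319 with sh2. OAS3, the long form that binds long RNA, rose from 1323 ± 12.7 CPM to 1656 ± 2.06 and 1758 ± 28.

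OASL, which has no synthetase activity and supports RIG-I, behaved differently from its paralogs with sh2. It read 368, 346 and 345 CPM in control, 353, 364 and 361 with sh1, and 319, 323 and 313 with sh2, with a log2 change of -0.15 ± 0.029 with sh2 (edgeR adjusted p = 5.19e-05). Its sh1 libraries overlapped control.

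The IFIT genes encode proteins that bind the 5′ ends of foreign RNA and sit side by side in one gene cluster. With sh2, 3 of 4 rose and 0 fell (34.2% and 34.3% of all tested genes), and with sh1, 1 rose and 2 fell (34.7% and 34.6%). IFIT1, which recognises caps without methylation on the first ribose, read 231, 236 and 237 CPM in control, 404, 412 and 406 with sh1, and 504, 506 and 479 with sh2. Its log2 change was 0.79 ± 0.029 with sh1 and 1.08 ± 0.029 with sh2 (edgeR adjusted p = 1.49e-20 and 7.59e-24), the second greatest rise of the 51 genes with sh2. All libraries of the groups stood apart.

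The other IFIT genes did not follow IFIT1 with sh1. IFIT3, which binds and stabilises IFIT1 protein, read 580, 574 and 565 CPM in control, 494, 500 and 488 with sh1, and 777, 789 and 775 with sh2 (log2 changes of -0.21 ± 0.025 and 0.45 ± 0.025). IFIT5 read 68.6, 64.8 and 68.6 CPM, then 48.4, 50.8 and 51.9, then 81, 80.1 and 78.5, in the same order of groups (-0.42 ± 0.043 and 0.25 ± 0.039). IFIT2 was flat, at 291 ± 2.35, 282 ± 4.4 and 298 ± 4.42 CPM, and was not called with sh1 or sh2 against control (edgeR adjusted p = 0.188 and 0.256). The direct comparison of sh1 with sh2 called it by a small margin (-0.08 ± 0.028, edgeR adjusted p = 0.0149), a call lost in 5 of 18 alternatives, namely upper-quartile scaling and those without sh1 library 2 or 3 or sh2 library 1 or 2 (adjusted p up to 0.118).

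The IFITM genes encode small membrane proteins that block the entry of enveloped viruses. With sh1 all 3 fell (34.6% of all tested genes did), and with sh2, 2 of 3 fell (34.3% of all) while IFITM3 was not called. IFITM1, the form at the cell surface, read 627, 637 and 616 CPM in control, 352, 382 and 362 with sh1, and 286, 299 and 308 with sh2. Its log2 changes were -0.78 ± 0.031 and -1.07 ± 0.031 (edgeR adjusted p = 9.34e-20 and 5.67e-23), and it was the only one of the 51 genes past 1.5-fold lower with sh2. It was also lower with sh2 than with sh1, the reverse of most of the 51 genes.

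IFITM2 read 69.2, 68.5 and 68.2 CPM in control, 27.7, 32.4 and 30.7 with sh1, and 51.5, 46.3 and 62.6 with sh2. Its fall of 1.18 ± 0.072 on the log2 scale with sh1 was the greatest among the 51 genes, and the sh2 libraries were uneven, with library 3 the highest. IFITM3, a form of endosomes and lysosomes, read 856, 836 and 829 CPM, then 749, 789 and 760, then 853, 846 and 921 in control, sh1 and sh2. The sh2 libraries overlapped control, with a log2 change of 0.06 ± 0.029 (edgeR adjusted p = 0.088). IFITM genes have near-identical stretches, so that the split of reads among them is uncertain. Their summed counts changed by -0.40 ± 0.029 with sh1 and -0.33 ± 0.029 with sh2, with a small difference between the hairpins (-0.08 ± 0.029, edgeR adjusted p = 0.0212).

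**Figure D2:**
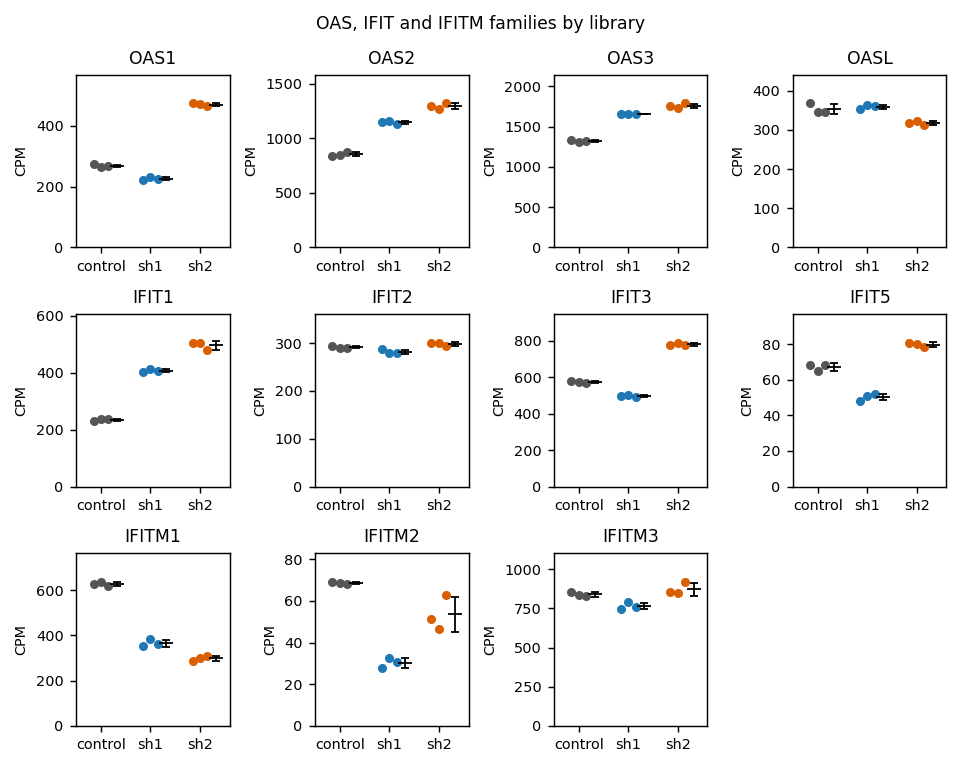
CPM of the OAS, IFIT and IFITM genes in each library (points), with the mean and SD of 3 libraries per group (black bars). Axes start at 0. OAS1 lies at 465 to 474 CPM in the sh2 libraries and at 222 to 231 with sh1, while IFITM1 is highest in control at 616 to 637.

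The 4 transcription factors of the pathway all fell with sh1 (34.6% of all tested genes did), and with sh2, 3 fell and 1 rose (34.3% and 34.2% of all). IRF1, a factor induced by interferon gamma and by NF-kB that binds ISRE-like elements, read 271, 266 and 258 CPM in control, 149, 151 and 153 with sh1, and 216, 217 and 219 with sh2. It fell by 0.81 ± 0.03 and 0.28 ± 0.029 on the log2 scale (edgeR adjusted p = 3.04e-20 and 5.98e-10), and the groups did not overlap. IRF7, the factor that amplifies interferon production, read 39, 36.5 and 35.6 CPM, then 24.6, 24.7 and 21.1, then 29.2, 30.7 and 31.2, a fall with each hairpin of -0.66 ± 0.063 and -0.29 ± 0.059.

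The DNA-binding subunit and its partner in the ISRE complex moved apart with sh2. IRF9 read 122, 116 and 119 CPM in control, 104, 103 and 107 with sh1, and 157, 160 and 158 with sh2. Its log2 changes were -0.18 ± 0.035 and 0.41 ± 0.033 (edgeR adjusted p = 2.54e-05 and 2.16e-12). STAT2 read 255, 250 and 253 CPM, then 219, 218 and 222, then 236, 231 and 237, and fell by 0.20 ± 0.029 and 0.11 ± 0.028.

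ISG15 is a ubiquitin-like protein that UBE2L6 and the ligase HERC5 attach to other proteins and USP18 removes. With sh2 all 6 genes of this system rose (34.2% of all tested genes did). With sh1, 4 rose and 1 fell (34.7% and 34.6% of all), and the rise of UBE2L6 among the 4 depended on 1 library. ISG15 read 230, 215 and 214 CPM in control, 202, 202 and 195 with sh1, and 260, 286 and 255 with sh2, so that only sh2 was above control (-0.14 ± 0.038 and 0.28 ± 0.037 on the log2 scale). USP18, which also dampens the type I receptor, read 102, 100 and 104 CPM, then 134, 143 and 142, then 156, 161 and 155 (0.46 ± 0.036 and 0.63 ± 0.035). UBE2L6 stood at 356 ± 5.92, 378 ± 8.65 and 487 ± 20.7 CPM, and its small rise with sh1 was lost without sh1 library 3 (edgeR adjusted p = 0.0825).

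HERC5 and HERC6 were higher with sh1 than with sh2. HERC6, a paralog of HERC5, read 131, 135 and 135 CPM in control, 290, 294 and 284 with sh1, and 172, 171 and 182 with sh2. Its rise with sh1 of 1.11 ± 0.032 on the log2 scale was the greatest among the 51 genes with that hairpin (edgeR adjusted p = 3.18e-23), and with sh2 it was 0.38 ± 0.033. HERC5 stood at 167 ± 3.79, 198 ± 5.09 and 181 ± 5.51 CPM. TRIM25, a ubiquitin ligase linked to RIG-I and ZAP, stood at 268 ± 1.62, 275 ± 1.85 and 307 ± 0.25 CPM, and was called with sh2 alone against control (0.20 ± 0.027, edgeR adjusted p = 1.85e-07).

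The MX genes encode GTPases that trap viral capsids or nucleoproteins. MX1 read 77.3, 77.3 and 71.9 CPM in control, 76.6, 76.2 and 81.3 with sh1, and 88.4, 86.8 and 85.8 with sh2. Only the sh2 libraries stood apart (0.20 ± 0.04 against control, edgeR adjusted p = 3.88e-05). MX2, the more abundant of the pair, read 433, 427 and 423 CPM, then 373, 391 and 387, then 477, 469 and 496, lower with sh1 (-0.16 ± 0.028) and higher with sh2 (0.17 ± 0.028).

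The IFI genes, a set of interferon-inducible genes of mixed function, rose with sh2 in 5 of 5 cases (34.2% of all tested genes did) and with sh1 in 2 (34.7% of all, a like share). IFI6, a small protein of the endoplasmic reticulum and mitochondria, read 937, 895 and 780 CPM in control, 1607, 1654 and 1627 with sh1, and 1518, 1546 and 1642 with sh2. Control library 3 was the lowest, and all hairpin libraries were far above control, at 0.90 ± 0.039 and 0.85 ± 0.039 on the log2 scale (edgeR adjusted p = 1.27e-18 and 7.26e-18). IFI27, a related mitochondrial protein, read 197, 189 and 180 CPM, then 316, 327 and 308, then 243, 267 and 238, higher with sh1 than with sh2 (0.34 ± 0.037, edgeR adjusted p = 1.37e-09).

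IFI44L and IFI35 were raised by sh2 alone. IFI44L read 336, 326 and 337 CPM in control, 327, 327 and 329 with sh1, and 527, 541 and 522 with sh2, a log2 change of 0.67 ± 0.027 with sh2 (edgeR adjusted p = 1.73e-19) and -0.02 ± 0.028 with sh1 (edgeR adjusted p = 0.458). IFI35 read 134, 129 and 125 CPM, then 129, 133 and 127, then 175, 195 and 179 (0.50 ± 0.037 with sh2). In the direct test, both were lower with sh1 than with sh2, by -0.69 ± 0.027 and -0.50 ± 0.037. IFI44, the paralog of IFI44L, stood at 307 ± 6.92, 311 ± 9.45 and 338 ± 15.4 CPM.

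Of the effector genes, RSAD2 had the greatest rise of all 51 genes with sh2. It encodes viperin, an enzyme that makes a chain-terminating nucleotide, and it read 51.4, 59.2 and 55.6 CPM in control, 84.7, 79.7 and 81 with sh1, and 146, 147 and 145 with sh2. The log2 change was 0.56 ± 0.045 with sh1 and 1.40 ± 0.041 with sh2 (edgeR adjusted p = 2.55e-12 and 8.71e-23), with no overlap. CMPK2, the mitochondrial nucleotide kinase encoded next to RSAD2, stood at 154 ± 4.04, 162 ± 4.97 and 212 ± 3.66 CPM. It rose with sh2 (0.46 ± 0.032), while its call with sh1 (0.07 ± 0.033, edgeR adjusted p = 0.0495) was lost in 9 of 18 alternatives, 6 of which left out 1 library (control 2 or 3, sh1 1 or 2, sh2 1 or 2; adjusted p up to 0.26).

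SAMD9 and SAMD9L, neighbouring genes whose products restrict poxviruses and translation, both rose with sh2. SAMD9 read 471, 484 and 497 CPM in control, 578, 572 and 577 with sh1, and 829, 809 and 819 with sh2 (0.25 ± 0.026 and 0.76 ± 0.026). SAMD9L read 249, 256 and 246 CPM, then 257, 255 and 252, then 391, 389 and 398, with sh1 overlapping control and sh2 higher by 0.65 ± 0.028. These paralogs share sequence, so that some reads may be split between them.

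BST2, which encodes tetherin, a protein that holds budding virus at the cell surface, went with sh1 instead. It read 164, 153 and 154 CPM in control, 201, 207 and 193 with sh1, and 161, 171 and 163 with sh2, with a log2 change of 0.35 ± 0.035 with sh1 (edgeR adjusted p = 4.5e-10) and 0.07 ± 0.036 with sh2 (edgeR adjusted p = 0.0738). SP100, a nuclear body protein, fell with each hairpin, from 247 ± 5.51 CPM to 180 ± 3.18 and 198 ± 5.6. TRIM22 stood at 163 ± 6.5, 169 ± 4.55 and 192 ± 3.55 CPM and TRIM21, an antibody receptor of the cytosol, at 29.7 ± 0.0988, 32.9 ± 2.59 and 36.1 ± 2.53. The call of TRIM21 with sh1 was lost in 7 of 18 alternatives (without control library 1, 2 or 3 or sh1 library 2 or 3 among them, adjusted p up to 0.24). Its call between the hairpins was lost in 15 of 18, which include the omission of any library but sh1 2 or sh2 1 (adjusted p up to 0.334).

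PARP9 and DTX3L encode a partner pair of ADP-ribosylation and ubiquitin ligation, and their transcripts did not move together. PARP9 rose from 314 ± 9.74 CPM in control to 347 ± 4.41 (sh1) and 426 ± 7.04 (sh2) (0.14 ± 0.029 and 0.44 ± 0.028), whereas DTX3L fell from 336 ± 13.1 to 263 ± 5.63 and 297 ± 2.89 (-0.36 ± 0.03 and -0.18 ± 0.03). PARP14, which attaches single ADP-ribose units, read 814, 826 and 860 CPM, then 826, 805 and 811, then 871, 864 and 846, and was not called against control (edgeR adjusted p = 0.254 and 0.116).

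Among the remaining genes, LGALS3BP, a secreted glycoprotein that binds galectins, read 771, 777 and 797 CPM in control, 1631, 1676 and 1665 with sh1, and 921, 950 and 986 with sh2. It rose by 1.08 ± 0.026 and 0.28 ± 0.026 on the log2 scale, and its difference between the hairpins (0.80 ± 0.026, edgeR adjusted p = 1.25e-21) was the greatest of those higher with sh1. EPSTI1 read 67.6, 68.2 and 74.6 CPM, then 76, 80.2 and 72.9, then 112, 108 and 114, and its rise with sh2 was 0.67 ± 0.042. Its call with sh1 (0.12 ± 0.045, edgeR adjusted p = 0.0155) went with overlapping libraries and was lost without control library 1, control library 2 or sh1 library 2 (adjusted p up to 0.123). XAF1, an antagonist of the apoptosis inhibitor XIAP, read 320, 327 and 347 CPM, then 267, 263 and 271, then 404, 394 and 400.

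**Figure D3:**
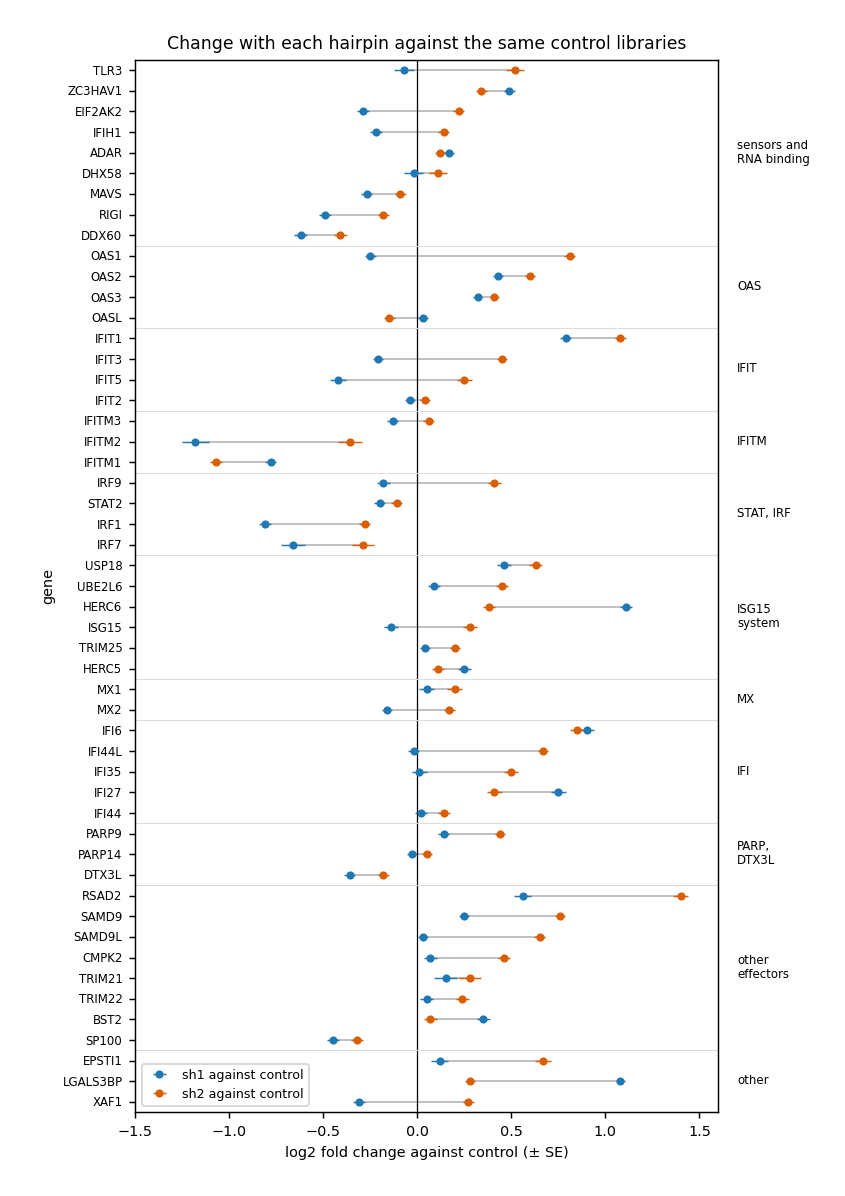
Log2 fold change against control (x axis, points with SE) of each of the 51 genes (y axis, grouped by role) for sh1 (blue) and sh2 (orange), both set against the same control libraries. RSAD2 lies furthest to the right with sh2 at 1.40, HERC6 with sh1 at 1.11, and IFITM2 furthest to the left with sh1 at -1.18.

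The order of the 3 groups was read from the libraries themselves. In 28 of the 51 genes (54.9%, against 20.4% of all tested genes) every sh2 library lay above every library of the other groups, and in 2 (3.92%, against 19.7%), IFITM1 and OASL, every sh2 library lay below. The sh1 libraries were below all others in 20 genes (39.2%, against 21.9%) and above all others in 6 (11.8%, against 21.1%), namely IFI27, LGALS3BP, HERC5, HERC6, ZC3HAV1 and BST2. Control was the lowest group in 18 genes (35.3%, against 20.2%) and the highest in 10 (19.6%, against 20.9%).

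A full order without overlap in which sh1 lay under control and sh2 above it held for 9 genes (17.6%, against 7% of all tested genes): IFIH1, EIF2AK2, OAS1, IFIT3, IFIT5, IRF9, ISG15, MX2 and XAF1. They include sensors, an OAS gene, IFIT genes, a factor and an MX gene. Each was called in both comparisons with control and between the hairpins. A further 10 genes (19.6%, against 6.6%), RSAD2, IFIT1, OAS2, OAS3, SAMD9, USP18, PARP9, UBE2L6, CMPK2 and TRIM25, stood in the order control, sh1, sh2. The steps to sh1 of CMPK2 and TRIM25 were of 0.07 ± 0.033 and 0.04 ± 0.027 on the log2 scale, and the latter was not called (edgeR adjusted p = 0.235).

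The order control above sh2 above sh1 held for 9 genes (17.6%, against 8.23%): RIGI, DDX60, MAVS, STAT2, IRF1, IRF7, IFITM2, DTX3L and SP100. RNA sensing and signalling genes (RIGI, DDX60, MAVS) and factors (STAT2, IRF1, IRF7) make up 6 of them. In IFI27, LGALS3BP, HERC5, HERC6 and ZC3HAV1 (9.8%, against 6.72%), control was lowest and sh1 highest.

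**Figure D4:**
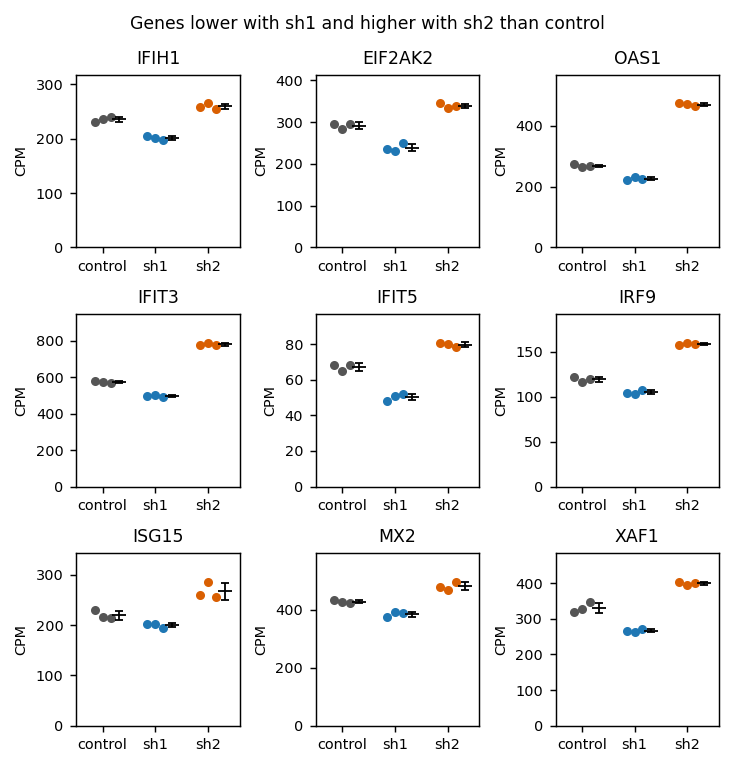
CPM in each library (points), with the mean and SD of 3 libraries per group (black bars), of the 9 genes that lay under control with sh1 and above it with sh2. Axes start at 0, and the 3 groups do not overlap in any of the 9 panels. OAS1 has the widest gap, with 222 to 231 CPM with sh1 and 465 to 474 with sh2.

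Other genes of the pathway were read from lists chosen by function. Of 8 interferon genes, 5 had enough counts to be tested. The type III interferon genes, whose products act on epithelia, had the most counts among them in control and fell with each hairpin. The difference between the hairpins was called for all 3, but that of IFNL2 (0.35, edgeR adjusted p = 0.0247) was lost with DESeq2 and without sh1 library 1, sh1 library 3 or sh2 library 3 (adjusted p up to 0.101). IFNL1, chosen after its values were seen, read 14.7, 16.4 and 16 CPM in control, 11.1, 11.4 and 10.7 with sh1, and 6.32, 5.91 and 6.77 with sh2. Its log2 changes were -0.50 ± 0.085 and -1.31 ± 0.094 (edgeR adjusted p = 5.36e-06 and 2.29e-13), and the groups did not overlap.

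IFNL2 fell from 10.9 ± 0.282 CPM in control to 4.84 ± 0.201 (sh1) and 3.79 ± 0.296 (sh2), and IFNL3 from 4.56 ± 1.05 to 2.71 ± 0.311 and 1.7 ± 0.314. The split of reads between these near-identical genes is uncertain, and in control library 3 IFNL3 was the lowest of its group at 3.49 CPM. IFNB1, the type I interferon made on RNA sensing, had 37 counts over the control libraries, 34 with sh1 and 10 with sh2, levels close to the floor of 3 counts per library. Its change with sh2 was -1.91 ± 0.5 (edgeR adjusted p = 0.00134). IFNE, an epithelial type I interferon, rose from 0.943 ± 0.212 CPM to 2.42 ± 0.587 and 2.03 ± 0.524. IFNK had 0 counts in all libraries, IFNA1 had 1 count with sh2 and IFNG 1 in control. With sh2, 4 of the 5 tested interferon genes fell (34.3% of all tested genes did), but these include the near-identical IFNL2 and IFNL3 and the sparsely counted IFNB1.

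**Figure D5:**
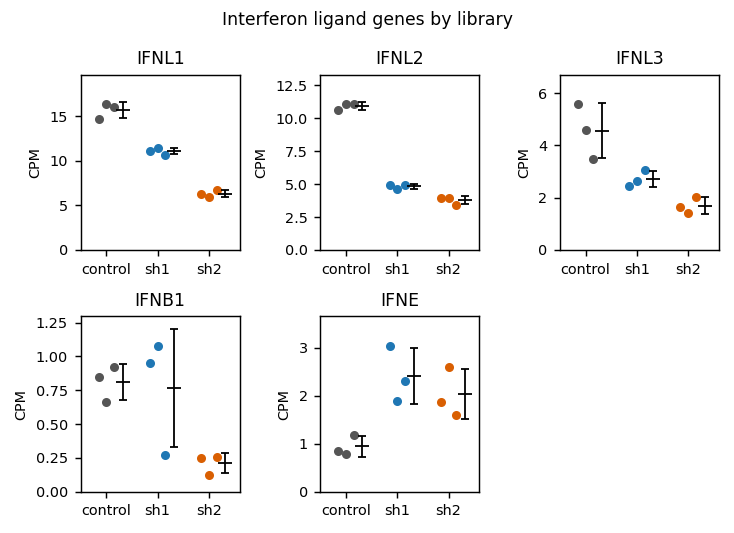
CPM in each library (points), with the mean and SD of 3 libraries per group (black bars), of 5 interferon genes. Axes start at 0. IFNL1 is highest in control at 14.7 to 16.4 CPM and lowest with sh2 at 5.91 to 6.77.

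Of 10 genes of interferon receptors and their signalling, 3 rose and 3 fell with sh1, and 4 rose and 3 fell with sh2, all near the shares of all tested genes (34.7% and 34.6%, then 34.2% and 34.3%). IFNAR1, a chain of the type I receptor, rose from 44.2 ± 1.56 CPM in control to 60.9 ± 2.38 (sh1) and 65.7 ± 1.91 (sh2). The interferon gamma receptor genes split between the hairpins. IFNGR1 fell with sh2 (219 ± 4.65 CPM, against 329 ± 7.01 in control and 328 ± 6.08 with sh1). IFNGR2 fell with sh1 (29.2 ± 0.823 CPM, against 46.5 ± 1.47 in control and 49.2 ± 2.38 with sh2). JAK2, a kinase of that receptor, rose with sh2 from 17.6 ± 0.75 to 26.3 ± 2.73 CPM.

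Of 18 adaptors, kinases and further sensors, 5 rose and 9 fell with sh1 (34.7% and 34.6% of all tested genes), and 8 rose and 7 fell with sh2 (34.2% and 34.3%). Between the hairpins, 12 were lower with sh1 and 3 higher (35.6% and 34.2% of all). ZBP1, a sensor of left-handed nucleic acid, rose from 4.35 ± 0.444 CPM to 7.64 ± 0.406 and 12.6 ± 0.376. TRAF3 and IKBKE, an adaptor and a kinase between MAVS and the IRF factors, fell with sh2, from 60.6 ± 1.21 to 34.1 ± 2.1 and from 47.7 ± 1.51 to 31.8 ± 1.01 CPM. With sh1 both were called higher, by 0.23 on the log2 scale for TRAF3 (edgeR adjusted p = 2.35e-05) and 0.10 for IKBKE (edgeR adjusted p = 0.0455). The IKBKE call was lost in 8 of 18 alternatives, among them the omission of control library 1 or 2 or of any sh1 library (adjusted p up to 0.173).

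Of 8 genes of feedback and turnover, 2 rose and 6 fell with sh1 (34.7% and 34.6% of all tested genes), and 3 rose and 4 fell with sh2 (34.2% and 34.3%). IFNAR2, a receptor chain that fell with each hairpin, is counted here and among the receptors. SOCS3, an inhibitor of JAK kinases, fell from 71.4 ± 1.42 CPM in control to 14.6 ± 0.789 (sh1) and 21.5 ± 1.35 (sh2), and PDLIM2, which targets STAT proteins for degradation, from 48.2 ± 1.6 to 15.8 ± 0.852 and 21.6 ± 2.08. ISG20, an RNA exonuclease that interferon induces, rose from 30.1 ± 0.367 CPM to 44.2 ± 2.79 and 89.1 ± 3.62. PTPN6, a phosphatase that acts on JAK signalling, fell by 0.18 on the log2 scale with sh1 and rose with sh2, from 43.4 ± 1.67 to 62.7 ± 0.654 CPM.

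Among 15 tested targets of IRF1 and of interferon gamma signalling, 4 rose and 10 fell with sh1 (34.7% and 34.6% of all tested genes; median log2 change -0.33), and 8 rose and 4 fell with sh2 (34.2% and 34.3%; median 0.26). Between the hairpins, 12 were lower with sh1 (35.6% of all). WARS1, a tRNA synthetase that interferon gamma induces, went from 706 ± 16 CPM in control to 223 ± 7.33 (sh1) and 467 ± 11.8 (sh2). GBP2, a GTPase that attacks pathogen vacuoles, read 72.4, 72.5 and 77.2 CPM in control, 32.8, 30.3 and 31 with sh1, and 91.4, 96.8 and 97.2 with sh2. The chemokine gene CXCL10 went the other way, from 75.5 ± 1.43 CPM in control to 127 ± 3.18 (sh1) and 53.2 ± 5.23 (sh2). CXCL11, its neighbour in the genome, rose with each hairpin, from 10.5 ± 0.918 CPM to 29.7 ± 2.06 and 26 ± 1.14.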

How the data were processed

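Per the labels' protocols, Trizol RNA was read on a BGISEQ-500. Tools named without a role by the submitters' processing notes were RSEM 1.2.12, HISAT2 2.0.4, DESeq2 1.4.5 and Bowtie2 2.2.5, with build hg19. Per the file headers, the authors deposited expected counts, TPM and FPKM for 19266 genes. Symbols came from RefSeq (GRCh38.p14, names and promoter sequences only) for 19223 identifiers. Whether counting used strand is not stated in the labels, so overlapping and antisense genes are uncertain.

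Deposited expected counts were rounded and tested with edgeR 4.0.16 in R 4.3.3 (filterByExpr, TMM, 1 quasi-likelihood fit of 9 libraries by group). The coefficient of variation between tables was 2.33%. CPM use TMM-scaled totals. Values are mean ± SD of 3 libraries, and log2 changes are ± SE. Each SE was taken as the absolute log2 change over the root of the F statistic. Tables of a sample differed by more than sampling noise (chi-square per gene 1.41 to 2.44). The test was checked on simulated counts. Same-numbered tables did not deviate together (correlations of -0.0766 to 0.0966), so the numbers were not taken to pair the samples.

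Alternatives were DESeq2 1.42.0, other scalings and filters, the deposited FPKM as log2 with a pseudocount of 1 or 0.1 in limma 3.58.1 (which understates low genes), a replicate block, 2-group fits and omission of each library. The genes and lists were chosen with earlier results of these data known. All 51 genes could be named. Of the other lists, the rule named at most 4 called genes each, by size of change, and some list genes are not reported here.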

Additional observations from a re-analysis of the deposited data

Results flagged for a closer look

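For 9 of the 51 genes (17.6%), sh1 was called lower and sh2 higher than control, with the libraries in the order sh1, control, sh2. That order held for 7% of all tested genes, and the share of all genes in the reverse order was not counted. The test of sh1 against sh2 also called each of the 9, with an edgeR adjusted p of at most 3.07e-11 (ISG15). Genes picked for lying on opposite sides of control must differ between the hairpins, so this test adds no separate support. The log2 difference of sh1 against sh2 was -1.06 for OAS1, -0.67 for IFIT5, -0.66 for IFIT3 and -0.60 for IRF9. It was -0.58 for XAF1, -0.50 for EIF2AK2, -0.42 for ISG15, -0.36 for IFIH1 and -0.33 for MX2. In each of the 9, all 3 sh1 libraries lay below and all 3 sh2 libraries above the control libraries. Both hairpins were compared with the same control sample, and there was 1 sample per group.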

How the results depend on the processing

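The counts of called genes moved by less than 1.5 times under every alternative run. The number of the 51 genes called was 39 with sh1 (36 to 39 when a library was left out, 37 to 44 otherwise), 47 with sh2 (46 to 48 and 46 to 50) and 49 between the hairpins (46 to 49 and 46 to 49). With the table number as a replicate block, these counts were 39, 47 and 49. At 1.5-fold they were 10, 11 and 11, with ranges of 10 to 11, 10 to 11 and 9 to 11 over all alternatives. Of 153 results for the 51 genes, 126 kept call and direction throughout, 10 lost a call and 10 gained one in at least 1 alternative.

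Direction turned only for values that were not called, apart from the summed IFITM counts. With sh1 against control, upper-quartile scaling gave DHX58 0.03, IFIT2 0.01, IFI44L 0.02, PARP14 0.01 and IFNGR1 0.04. DHX58 read 0.00 without control library 1 or 3 and 0.02 without sh1 library 2, and its range over omitted libraries was -0.06 to 0.02. IFI35 read -0.02 without control library 3 or sh1 library 2 and -0.00 with only the compared groups, and IFI44 -0.00 without sh1 library 2. IFNB1 read 0.03 without control library 3 and 0.32 without sh1 library 3, in a range of -0.41 to 0.32. IFNGR1 read 0.00 to 0.01 under the other alternatives that turned it. The summed IFITM counts gave -0.33 in place of IFITM3 with sh2, and -0.08 in place of IFITM1 between the hairpins, since the sum mixes genes that moved differently. Calls of ADAR, IFITM3, IFI6, BST2, PARP14 and TRIM22 that were absent appeared when 1 library was left out, with log2 changes of at most 0.10. The spread between tables cannot show what separate cultures would, and no depth limit applied to the 51 genes.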

Other observations

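The deposited tables also give a mean transcript length per gene, which moves when the mix of a gene's transcripts moves. Of the 51 genes, 25 have more than 1 transcript in the tables, and the 3 with the greatest relative shift are given here, chosen after their values were seen. For SP100, which has 6 transcripts, the length was 2803 ± 31.4 bases in control, 3028 ± 30.7 with sh1 and 2971 ± 66.3 with sh2 (SD, n = 3), with all hairpin libraries (2923 to 3063) above control (2770 to 2832). For PARP9, also with 6, it was 3622 ± 31.4 in control, 3693 ± 16.4 with sh1 and 3356 ± 1.87 with sh2. The sh2 libraries (3354 to 3358) lay below all others, in the same libraries in which PARP9 counts were highest. For ZC3HAV1, whose transcripts encode a long and a short form of ZAP, it was 6389 ± 50.5 in control, 6759 ± 31.6 with sh1 and 6280 ± 51.3 with sh2. The sh1 libraries (6733 to 6794) did not overlap the others. Among OAS genes, OAS2 had 3462 ± 7.27 in control, 3545 ± 3.44 with sh1 and 3407 ± 1.87 with sh2. These lengths rest on the authors' estimate of transcript shares, and no test was run on them.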
